A study of Mus musculus with 12 samples.

Results

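The mitosis and spindle genes are 45 genes whose products drive a cell from the end of G2 through mitosis and cytokinesis. They were taken by gene symbol from a fixed list, chosen with earlier results of these data known, and made up 45 of the 53801 genes in the deposited table. Each symbol matched 1 gene, and all 45 passed the filter on low values, which kept 14246 genes with a mean of at least 1 FPKM (fragments per kilobase of transcript, scaled to the library's fragment total) over the 12 libraries. RNA was measured in bulk tumours grown from cells of the Lewis lung carcinoma, LLC for short, a mouse lung cancer line that arose in the C57BL/6 strain, in both flanks of female C57BL/6 hosts aged 6 to 8 weeks. Per the labels, 3e6 cells in Matrigel were injected per flank, 6 mice formed a group, and treatment into the peritoneum ran 2 times per week for 4 weeks once tumours had reached 100 mm3. The groups were vehicle, cisplatin, brivanib and the combination of the 2 drugs, with 3 tumours each. Cisplatin is a platinum compound that forms crosslinks in DNA, and brivanib blocks the kinases of VEGF and FGF receptors. Doses were not among the labels. A group had 10 to 12 tumours on 6 mice, so tumours of 1 group may share a mouse, and the p-values below measure the spread between these libraries only.

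As background, entry into mitosis is driven by cyclin-dependent kinase 1 bound to cyclins A and B, and by the Polo-like and Aurora kinases. Motors and microtubule-binding proteins then build the spindle, kinetochores attach chromosomes to it, and the spindle checkpoint holds back the anaphase-promoting complex until every kinetochore is attached. Most of these genes are transcribed in G2 and M phase and are nearly silent in resting cells, so their RNA in a tumour is commonly read as a measure of how many cells are cycling and of how they are spread over the cycle. Bulk RNA cannot tell a larger share of cycling cells from more RNA per cycling cell.

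Recovered depth was 17.161 to 30.943 M (1e6) fragments per library, and each member had at least 276 fragments in every library (Ttk at its lowest), up to 14746 for Top2a. Counting error at 276 fragments is 6.0%, below the median spread between libraries of a group, which was a coefficient of variation of 10.7% in vehicle, 8.4% in cisplatin, 17.4% in brivanib and 10.0% in combination tumours. Brivanib 5 stood apart: features named like ribosomal RNA took 38.331% of its fragments, against 0.316% to 0.692% in the other libraries, although the fragment total behind its FPKM values (21.021 M) was like that of the others. The epithelial keratins Krt18 and Krt5 were at 0 in all libraries, and Krt8 and Krt14 reached at most 0.222 and 0.166 FPKM. Epcam, a further epithelial marker, was at 0.395 to 1.648 FPKM. Vim, an intermediate filament gene of mesenchymal cells, was at 814.204 to 1235.595 FPKM.

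The members were well expressed. Ube2c, the ubiquitin-conjugating enzyme of the anaphase-promoting complex, had the highest mean level (157.257 FPKM over the 12 libraries) and Top2a, the topoisomerase that disentangles sister DNA, the next. Those 2 were the only members above 100 FPKM. At the other end were Kif14, a motor of the midbody, at 6.049 FPKM, and Ttk, the kinase that starts the checkpoint signal.

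In each cisplatin and combination tumour nearly the whole set was higher than in any vehicle tumour. Against the highest vehicle library, 45, 44 and 42 of the 45 members were higher in cisplatin 1, 2 and 3, and 45, 42 and 44 in combination 2, 3 and 4. Over all tested genes the same count came to 36.7%, 37.7% and 42.2% in the cisplatin libraries and 38%, 38.3% and 35% in the combination libraries. The median member stood at 1.574, 1.355 and 1.426 times the vehicle mean in cisplatin 1, 2 and 3, and at 1.592, 1.358 and 1.422 times in combination 2, 3 and 4. The vehicle libraries themselves ran from 0.909 to 1.088 times their own mean. Brivanib tumours differed among themselves. Brivanib 3 and 5 had 42 and 39 members above the highest vehicle library (36.5% and 23.7% of all genes) and medians of 1.367 and 1.252 times the vehicle mean. Brivanib 2 had 8 members above the highest and 9 below the lowest vehicle library (32.2% and 32.9% of all genes), with a median of 0.977 times the vehicle mean.

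**Figure D1:**
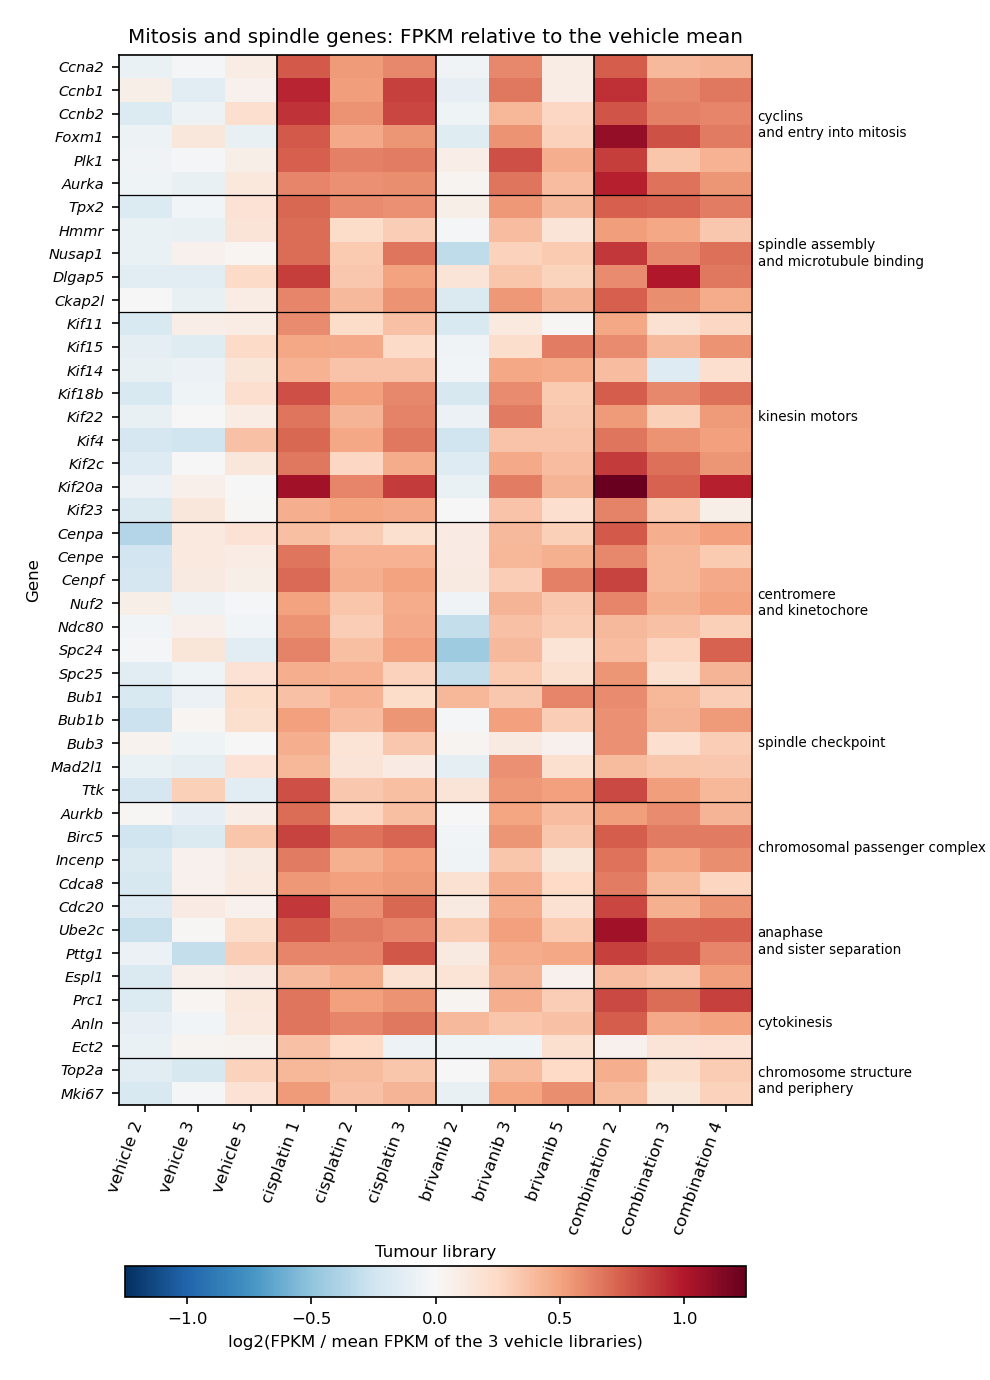
Heat map of the 45 genes (rows, grouped by role) in the 12 tumour libraries (columns), coloured by log2 of FPKM over the mean FPKM of the 3 vehicle libraries. The cisplatin and combination columns are red for nearly all genes, with medians of 1.355 to 1.592 times the vehicle mean, brivanib 3 and 5 are red to a lesser degree, and brivanib 2, at 0.977, looks like vehicle.

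Cisplatin alone was compared with vehicle to ask what the platinum drug did to these genes after 4 weeks. All 45 members had a higher fitted mean in the cisplatin tumours, with a median log2 fold change of 0.51 (1.42-fold), beside 0.07 over all tested genes. Anln, the gene of anillin, a scaffold of the contractile ring, was the only member past the threshold of 0.05 after Benjamini-Hochberg adjustment, 1 of 45, while 0.119% of all tested genes were higher past the test. Anln (chr9:22332012-22389188, minus strand, GRCm38) was at 29.9, 31.3 and 34.9 FPKM in vehicle and 51.0, 49.0 and 50.4 FPKM in cisplatin tumours. The groups did not overlap, and the log2 fold change was 0.63 ± 0.10 (SE, limma adjusted p = 0.0374). For 42 of the 45 members every cisplatin library lay above every vehicle library, which held for 17% of all genes, and 41 members had an unadjusted p under 0.05, as did 2036 of the 14246 genes in either direction. The Anln call was lost (0 members) when any vehicle or cisplatin library or brivanib 5 was left out, where 0% to 0.0983% of all genes were higher past the test. Without brivanib 2 and brivanib 3, 8 and 4 members passed, beside 0.52% and 0.225% of all genes.

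The combination was compared with vehicle to ask what both drugs did together. Of the 45 members 14 were higher past the test, beside 1.82% of all tested genes, none was lower, and the median log2 fold change was 0.53 (1.44-fold) against 0.04 over all genes. Every combination library lay above every vehicle library for 41 members, as it did for 17.2% of all genes, and 42 members had an unadjusted p under 0.05, as did 2674 of the 14246 genes in either direction. Adjusted p-values of the 14 ran from 0.0115 for Prc1 to 0.0481 for Nuf2. Just outside the threshold stood Birc5, at 0.70 ± 0.16 (adjusted p = 0.05005), and Kif2c, at 0.68 ± 0.16 (adjusted p = 0.0529). The count depended on single libraries: it was 0 without vehicle 2, vehicle 3 or combination 2, 3 without combination 3, 8 without vehicle 5 or combination 4, and 22 without brivanib 2, which enters this comparison only through the estimate of the spread. The share of all tested genes higher past the test also moved: 0.175% without vehicle 2, 0.0983% without vehicle 3 and 0.21% without combination 2. It was 0.225% without combination 3, 0.505% without vehicle 5, 1.79% without combination 4 and 2.81% without brivanib 2. The members' median log2 fold change stayed between 0.48 and 0.58 in all of these fits.

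Averaged over tumours with and without brivanib, cisplatin had its effect estimated from 6 libraries against 6. Of the 45 members 24 were higher past the test, beside 4.96% of all tested genes, and none was lower. The median log2 fold change was 0.37 (1.29-fold), beside 0.05 over all genes. The 6 cisplatin-treated libraries lay above all 6 others for 11 members (3.45% of all genes): Ccnb2, Tpx2, Kif11, Kif4, Bub3, Birc5, Incenp, Ube2c, Pttg1, Prc1 and Anln. The 14 members called for the combination against vehicle were all among the 24. The count fell to 13 without vehicle 2 or vehicle 3 and to 14 without cisplatin 1, cisplatin 3 or combination 2. Over all tested genes the share higher past the test was 2.67% without vehicle 2 and 2.25% without vehicle 3. Without cisplatin 1, cisplatin 3 and combination 2 it was 2.94%, 2.21% and 2.41%. Since these comparisons share libraries, they are not independent of each other. The haemoglobin and other red cell markers moved with cisplatin too: their mean log2(FPKM + 1) was 4.728 to 5.317 in vehicle, 3.58 to 5.187 in brivanib, 0.336 to 2.444 in cisplatin and 0.342 to 0.782 in combination tumours. All 5 red cell markers tested (of 8 listed) were lower with cisplatin past the test, and Hbb-bs was at 0 in cisplatin 3 and in the 3 combination libraries. Markers of fibroblasts and T cells also differed with cisplatin. All 12 fibroblast markers had a negative average difference, with a median of -0.68, and 3 were lower past the test (Dcn, Pi16 and Fbln1). Pi16 and Fbln1 were lower with cisplatin only where brivanib was given. Mean Pi16 was 0.165 FPKM in vehicle, 0.571 in cisplatin, 10.835 in brivanib and 0.449 in combination tumours. Mean Fbln1 was 0.11, 0.748, 7.096 and 0.47 FPKM in the same order. The cisplatin effect with brivanib minus that without it was -3.40 for Pi16 and -3.00 for Fbln1 (limma adjusted p = 0.0129 and 0.0275). On that difference 0.14% of all tested genes were called lower. The list's mean level was 3.99 to 4.925 in cisplatin and 3.602 to 4.517 in combination tumours. It was within or above the 3.415 to 4.43 of vehicle and below the 5.76 to 6.015 of brivanib tumours. Of 12 T cell markers 5 were tested, 1 of these was positive, their median was -0.67, and Lck was lower past the test. The T cell list's mean was 1.075 to 1.22 in cisplatin, 0.757 to 1.058 in combination, 1.261 to 2.161 in vehicle and 1.325 to 1.692 in brivanib tumours. Other lists moved with 0 markers past the test. The average difference was positive for 0 of 12 muscle, 2 of 12 macrophage and 3 of 12 endothelial markers tested. Their medians were -0.72, -0.43 and -0.22. For adipocyte markers it was positive for 8 of 9 (median 0.49). For cisplatin alone against vehicle the muscle and macrophage medians were 0.74 and 0.19. The part of all these lists in the result was not tested.

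**Figure D2:**
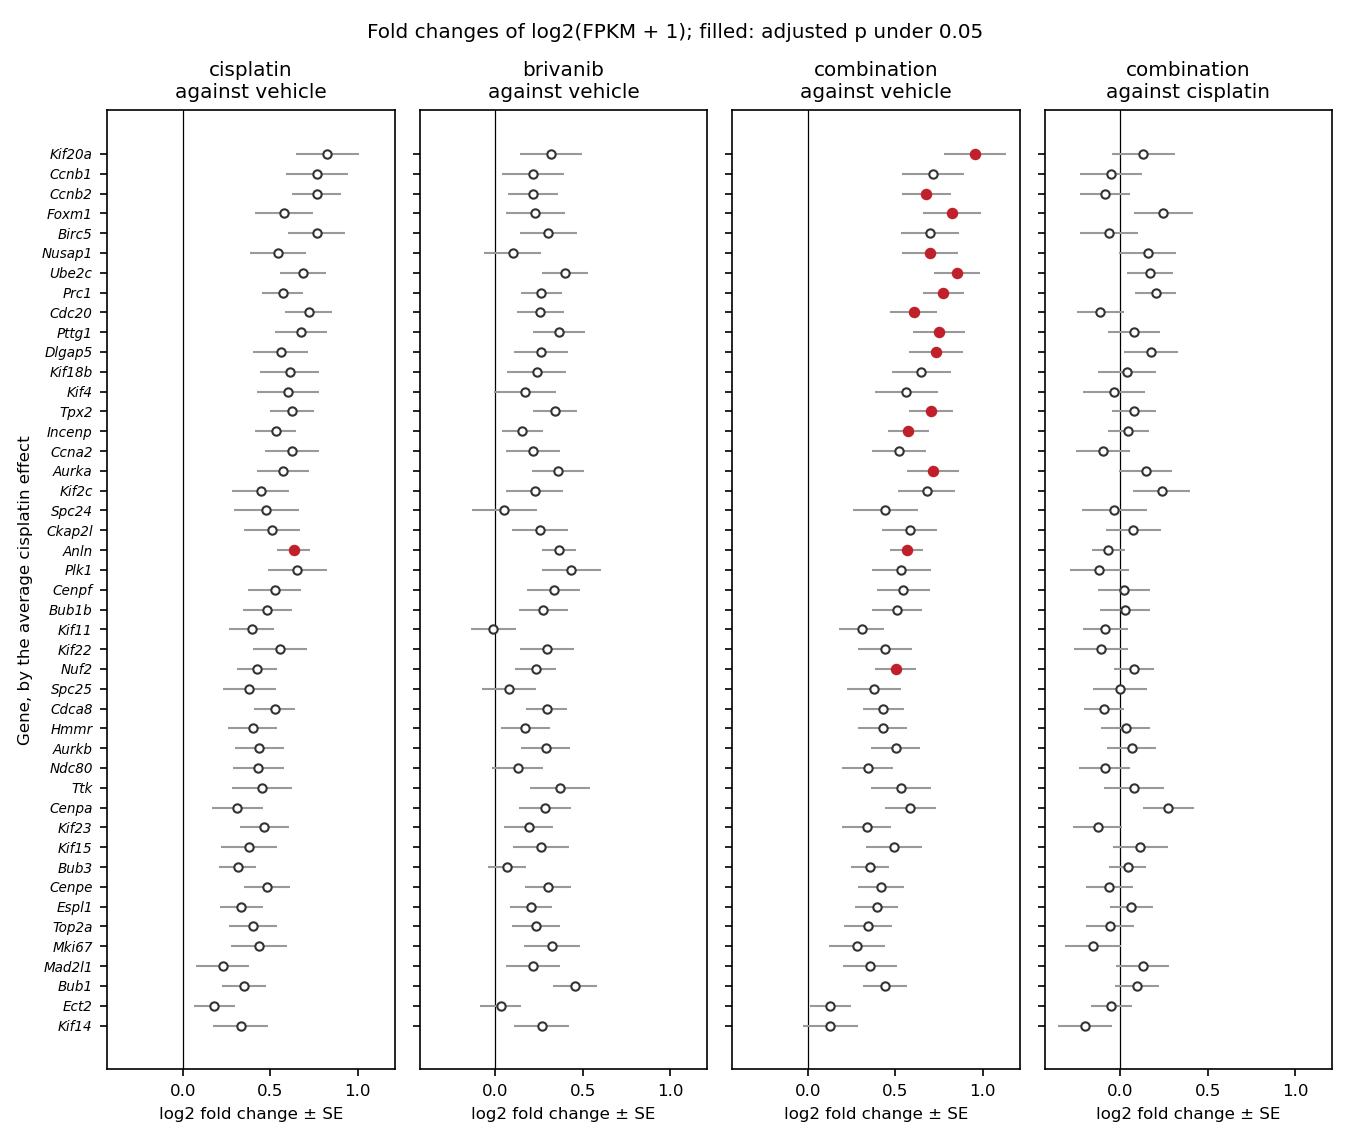
Log2 fold changes of log2(FPKM + 1) with their standard errors for the 45 genes (rows, ordered by the average cisplatin effect) in 4 comparisons. Filled points passed an adjusted p of 0.05: 1 gene for cisplatin, 0 for brivanib and 14 for the combination against vehicle, and 0 for the combination against cisplatin, where points scatter around 0.

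The genes of cyclins and of entry into mitosis were among those with the largest differences. Of these 6 genes, 5 rose with cisplatin averaged over brivanib (all but Plk1) and 3 rose in the combination against vehicle (Ccnb2, Foxm1 and Aurka). Ccnb2, which encodes cyclin B2, was at 60.0, 64.4 and 77.8 FPKM in vehicle, 126.0, 99.2 and 120.3 in cisplatin, 65.1, 90.0 and 80.6 in brivanib, and 116.3, 104.1 and 103.1 in combination tumours. All 6 cisplatin-treated libraries were above all 6 others, and the average log2 fold change for cisplatin was 0.61 ± 0.10 (adjusted p = 0.00736). Ccnb1, for cyclin B1, the main partner of the mitotic kinase, was at 45.1, 38.7 and 44.4 FPKM in vehicle, 82.9, 61.5 and 77.2 in cisplatin, 39.8, 67.3 and 45.5 in brivanib, and 80.7, 64.6 and 67.5 in combination tumours. It rose by 0.63 ± 0.13 on the same scale (adjusted p = 0.0166). Brivanib 3 lay inside the range of the cisplatin tumours for this gene. Foxm1 encodes the transcription factor that switches on many G2 and M phase genes. It was at 22.0, 25.4 and 21.5 FPKM in vehicle, 39.0, 31.9 and 33.6 in cisplatin, 20.7, 33.8 and 28.0 in brivanib, and 49.0, 39.8 and 36.0 in combination tumours. Its log2 fold change in the combination was 0.82 ± 0.17 against vehicle (adjusted p = 0.0294). Aurka, the spindle pole kinase, was at 25.9, 25.2 and 29.5 FPKM in vehicle, 41.0, 39.9 and 40.1 in cisplatin, 27.5, 42.8 and 35.2 in brivanib, and 52.6, 43.1 and 39.3 in combination tumours. Combination and vehicle tumours did not overlap (0.72 ± 0.15, adjusted p = 0.0328). Ccna2, for the cyclin of S phase and early mitosis, was at 51.1, 53.5 and 57.7 FPKM in vehicle, 91.9, 78.2 and 81.9 in cisplatin, 52.6, 81.9 and 57.8 in brivanib, and 91.1, 71.5 and 72.8 in combination tumours. It rose by 0.46 ± 0.11 with cisplatin on average (adjusted p = 0.0293), although brivanib 3 was as high as the cisplatin tumours. Plk1, the Polo-like kinase, was at 25.1, 25.5 and 27.3 FPKM in vehicle, 43.7, 40.1 and 40.5 in cisplatin, 27.5, 45.4 and 35.5 in brivanib, and 47.2, 33.0 and 35.2 in combination tumours. Brivanib 3 was above both the cisplatin and vehicle libraries, and the average cisplatin effect of 0.38 ± 0.12 missed the threshold (adjusted p = 0.0797).

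Among the 5 genes of spindle assembly, 4 rose with cisplatin on average and 3 in the combination against vehicle. Tpx2, which activates Aurora A and seeds spindle microtubules, was at 49.3, 54.5 and 63.2 FPKM in vehicle, 91.4, 83.7 and 82.6 in cisplatin, 58.4, 81.1 and 73.8 in brivanib, and 93.3, 92.2 and 86.8 in combination tumours. The lowest cisplatin-treated library was just above the highest of the others, and the average cisplatin effect was 0.49 ± 0.09 (adjusted p = 0.0117). Nusap1, which bundles spindle microtubules, was at 19.1, 20.9 and 20.5 FPKM in vehicle, 32.7, 25.3 and 32.0 in cisplatin, 16.2, 24.7 and 25.3 in brivanib, and 37.1, 30.6 and 32.6 in combination tumours. Brivanib 2 was the lowest of all, and combination tumours were above vehicle tumours (0.70 ± 0.16, adjusted p = 0.0460). Dlgap5, which stabilises kinetochore fibres, was at 18.7, 18.8 and 24.3 FPKM in vehicle, 37.5, 26.0 and 29.2 in cisplatin, 23.0, 26.1 and 24.9 in brivanib, and 30.9, 41.2 and 32.5 in combination tumours. Combination 3 was the highest, and the combination differed from vehicle by 0.73 ± 0.16 (adjusted p = 0.0345). Ckap2l, a spindle protein, was at 24.3, 22.8 and 25.9 FPKM in vehicle, 37.0, 32.1 and 35.9 in cisplatin, 21.4, 35.3 and 32.6 in brivanib, and 40.9, 36.4 and 33.6 in combination tumours. Brivanib 3 and 5 lay among the cisplatin tumours, and the gene rose by 0.42 ± 0.11 with cisplatin on average (adjusted p = 0.0484). Hmmr, a spindle-associated hyaluronan receptor, differed by 0.33 ± 0.10 (adjusted p = 0.0699) and did not pass.

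Kinesins move along microtubules or take them apart, and the 9 kinesin genes held both the most and the least responsive members. With cisplatin on average 5 of the 9 rose (Kif20a, Kif18b, Kif4, Kif2c and Kif11), and Kif20a alone rose in the combination against vehicle. Kif20a, the motor that carries the passenger complex to the spindle midzone, was at 28.5, 31.2 and 30.1 FPKM in vehicle, 61.8, 45.8 and 55.0 in cisplatin, 28.2, 46.7 and 40.1 in brivanib, and 70.3, 49.8 and 58.5 in combination tumours. It had the largest average cisplatin effect of the 45 members, 0.73 ± 0.13 (adjusted p = 0.00983), and 0.96 ± 0.18 in the combination against vehicle (adjusted p = 0.0234). Brivanib 3 was above the lowest cisplatin library, so the 6 against 6 overlapped. Kif11, which pushes the spindle poles apart, rose by 0.36 ± 0.09 (adjusted p = 0.0387), from 25 to 30.4 FPKM in vehicle to 33.6 to 43.1 FPKM in cisplatin tumours, and was 25.1 to 31.0 FPKM with brivanib alone. Kif4, a chromosome-bound motor, rose by 0.50 ± 0.13 (adjusted p = 0.0381). Kif2c, which takes microtubules apart at centromeres, rose by 0.45 ± 0.12 (adjusted p = 0.0404). Kif18b, which works at the plus ends of astral microtubules, rose by 0.51 ± 0.12 (adjusted p = 0.0280). Kif14 had the smallest average effect of the 45, 0.10 ± 0.11 (adjusted p = 0.626). Its levels were 4.86, 4.91 and 5.76 FPKM in vehicle, 7.01, 6.62 and 6.62 in cisplatin, 5.06, 7.24 and 7.13 in brivanib, and 6.76, 4.63 and 5.99 in combination tumours, so the combination overlapped vehicle. Kif15, the spindle motor that can stand in for Kif11, had an average difference of 0.30 ± 0.11 (adjusted p = 0.126), and Kif23, of the centralspindlin complex, 0.31 ± 0.10 (adjusted p = 0.0839). Kif22, a motor on chromosome arms, was at 24.9, 26.6 and 28.3 FPKM in vehicle, 42.2, 35.7 and 40.8 in cisplatin, 25.2, 41.7 and 33.6 in brivanib, and 38.5, 32.7 and 38.5 in combination tumours. Brivanib 3 was as high as the highest cisplatin libraries, and the average cisplatin difference was 0.35 ± 0.11 (adjusted p = 0.0772).

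Genes of the centromere and kinetochore, where chromosomes meet the spindle, gave 1 call among 7 for the average cisplatin effect. Nuf2, a subunit of the microtubule-binding NDC80 complex, was at 27.9, 25.3 and 26.2 FPKM in vehicle, 37.6, 33.6 and 36.4 in cisplatin, 25.6, 35.5 and 33.4 in brivanib, and 40.3, 36.0 and 37.5 in combination tumours. It rose by 0.35 ± 0.08 on average (adjusted p = 0.0305) and by 0.50 ± 0.12 in the combination against vehicle (adjusted p = 0.0481). The other NDC80 subunits had differences of similar size that did not pass, with 0.32 ± 0.10 for Ndc80, 0.43 ± 0.13 for Spc24 and 0.34 ± 0.11 for Spc25 and adjusted p-values of 0.0839, 0.0718 and 0.0834. In brivanib 2 these 3 genes were at 17.0, 9.52 and 14.1 FPKM, below every vehicle library, as were 32.9% of all tested genes. Cenpa, the histone variant that marks centromeres, was at 38.0, 53.5 and 55.8 FPKM in vehicle, 63.7, 61.3 and 56.3 in cisplatin, 52.7, 65.1 and 60.5 in brivanib, and 83.5, 67.2 and 69.9 in combination tumours. The combination tumours lay above all other groups for Cenpa, with 0.58 ± 0.15 against vehicle (adjusted p = 0.0594) and 0.27 ± 0.15 against cisplatin (adjusted p = 0.771), so neither difference passed. Cenpe, a kinetochore motor, and Cenpf, a large kinetochore protein, had average differences of 0.30 ± 0.09 and 0.37 ± 0.11 (adjusted p = 0.0802 and 0.0615).

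The 5 genes of the spindle checkpoint, which delays anaphase while kinetochores are unattached, had smaller differences. Bub3, which docks the checkpoint proteins, rose by 0.30 ± 0.08 with cisplatin on average (adjusted p = 0.0362), with 28.8 to 32.2 FPKM in the 6 libraries without and 33.7 to 44.5 FPKM in the 6 with cisplatin. Bub1, the kinase that recruits the others, was at 31.4, 34.1 and 42.1 FPKM in vehicle, 46.4, 48.6 and 42.0 in cisplatin, 48.0, 45.4 and 54.7 in brivanib, and 54.2, 48.0 and 44.5 in combination tumours. It was the member with the largest difference between brivanib and vehicle, 0.46 ± 0.12 (adjusted p = 0.115), and all 3 brivanib libraries were above all vehicle libraries. Mad2l1, the inhibitor of Cdc20, had an average cisplatin difference of 0.18 ± 0.11 (adjusted p = 0.326), and Ttk 0.31 ± 0.12 (adjusted p = 0.143). Bub1b, the pseudokinase of the checkpoint complex, was at 25.7, 31.5 and 35.5 FPKM in vehicle, 44.1, 40.4 and 45.2 in cisplatin, 30.5, 44.2 and 38.2 in brivanib, and 45.9, 41.6 and 44.7 in combination tumours. Brivanib 3 again reached the cisplatin range, and the average cisplatin difference was just outside the threshold at 0.36 ± 0.10 (adjusted p = 0.0542).

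Of the 4 genes of the chromosomal passenger complex, which corrects attachments and later directs cytokinesis, 3 rose with cisplatin on average. Birc5, for survivin, was at 45.2, 47.3 and 68.2 FPKM in vehicle, 96.5, 85.6 and 88.8 in cisplatin, 52.3, 78.4 and 67.5 in brivanib, and 90.4, 84.3 and 83.8 in combination tumours. All libraries with cisplatin were above all libraries without it (0.58 ± 0.12, adjusted p = 0.0171). Incenp, the scaffold, was at 39.5, 46.3 and 48.4 FPKM in vehicle, 70.2, 60.8 and 63.8 in cisplatin, 43.4, 56.9 and 49.6 in brivanib, and 71.7, 62.4 and 66.9 in combination tumours. It was likewise without overlap and rose by 0.48 ± 0.08 (adjusted p = 0.0102), and by 0.57 ± 0.12 in the combination against vehicle (adjusted p = 0.0298). Cdca8, for borealin, was at 27.7, 33.0 and 34.5 FPKM in vehicle, 46.2, 45.4 and 46.0 in cisplatin, 36.2, 43.4 and 37.6 in brivanib, and 49.3, 41.8 and 38.3 in combination tumours. The groups with and without cisplatin overlapped, and it rose by 0.33 ± 0.08 (adjusted p = 0.0362). Aurkb, the complex's kinase, had a difference of 0.33 ± 0.10 (adjusted p = 0.0703) that did not pass.

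Anaphase starts when the anaphase-promoting complex, charged by Ube2c and activated by Cdc20, destroys securin (Pttg1) and frees separase (Espl1). The first 3 of these genes rose both with cisplatin on average and in the combination against vehicle. Ube2c (chr2:164769898-164778822, plus strand, GRCm38) was at 90.9, 111.5 and 127.8 FPKM in vehicle, 187.1, 172.9 and 168.3 in cisplatin, 137.6, 157.4 and 137.8 in brivanib, and 227.5, 183.6 and 184.7 in combination tumours. Every treated library was above every vehicle library, and every library with cisplatin was above every library without. Its log2 fold change against vehicle was 0.85 ± 0.13 in the combination (adjusted p = 0.0126), 0.69 ± 0.13 with cisplatin (adjusted p = 0.0660) and 0.40 ± 0.13 with brivanib (adjusted p = 0.224). Cdc20 was at 42.6, 51.1 and 49.4 FPKM in vehicle, 88.2, 70.7 and 78.7 in cisplatin, 51.6, 66.0 and 54.4 in brivanib, and 84.9, 64.7 and 70.2 in combination tumours. It rose by 0.60 ± 0.13 in the combination against vehicle (adjusted p = 0.0397), and cisplatin against vehicle gave 0.72 ± 0.13 (adjusted p = 0.0598). Pttg1 was at 33.3, 28.5 and 43.3 FPKM in vehicle, 53.7, 53.7 and 60.0 in cisplatin, 37.8, 48.3 and 49.0 in brivanib, and 63.2, 60.0 and 53.4 in combination tumours. All libraries with cisplatin were above all libraries without it, and the combination differed from vehicle by 0.75 ± 0.15 (adjusted p = 0.0275). Espl1, the protease that cuts cohesin, had an average cisplatin difference of 0.26 ± 0.09 (adjusted p = 0.0910).

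The 3 cytokinesis genes split. Prc1 (chr7:80294450-80316259, plus strand, GRCm38) cross-links antiparallel microtubules of the midzone. It was at 22.0, 25.3 and 27.2 FPKM in vehicle, 39.6, 35.5 and 36.7 in cisplatin, 25.5, 33.9 and 30.7 in brivanib, and 44.1, 40.2 and 44.8 in combination tumours. The combination libraries were above every other library, and Prc1 had the smallest p-value of the members both for the average cisplatin effect (0.54 ± 0.08, adjusted p = 0.00605) and for the combination against vehicle (0.77 ± 0.12, adjusted p = 0.0115). Anln, given above for cisplatin, was at 42.3, 40.6 and 41.2 FPKM in brivanib and 54.0, 44.4 and 45.3 FPKM in combination tumours, so every treated tumour was above every vehicle tumour. Its log2 fold change was 0.56 ± 0.10 in the combination (adjusted p = 0.0188) and 0.36 ± 0.10 with brivanib (adjusted p = 0.0960). Ect2, which activates RhoA at the division plane, did not pass in any comparison. Its levels were 23.2, 25.1 and 25.3 FPKM in vehicle, 31.7, 29.2 and 23.5 in cisplatin, 23.7, 23.6 and 28.2 in brivanib, and 25.5, 27.5 and 27.8 in combination tumours, with an average cisplatin difference of 0.14 ± 0.08 (adjusted p = 0.330).

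Mki67 and Top2a, the members most used as proliferation markers, were not among the calls. Mki67, whose protein coats mitotic chromosomes, was at 28.2, 31.9 and 36.3 FPKM in vehicle, 46.5, 41.4 and 43.2 in cisplatin, 30.1, 45.2 and 48.2 in brivanib, and 42.4, 35.6 and 39.3 in combination tumours. The cisplatin tumours were all above the vehicle tumours, and the combination tumours overlapped them. Its average cisplatin difference was 0.20 ± 0.11 (adjusted p = 0.311). Top2a was at 107.9, 102.9 and 144.9 FPKM in vehicle, 158.1, 155.8 and 151.0 in cisplatin, 119.2, 155.7 and 140.9 in brivanib, and 162.1, 137.7 and 147.7 in combination tumours. The cisplatin tumours were above the vehicle tumours, the combination tumours overlapped them, and the average cisplatin difference was 0.26 ± 0.10 (adjusted p = 0.133).

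**Figure D3:**
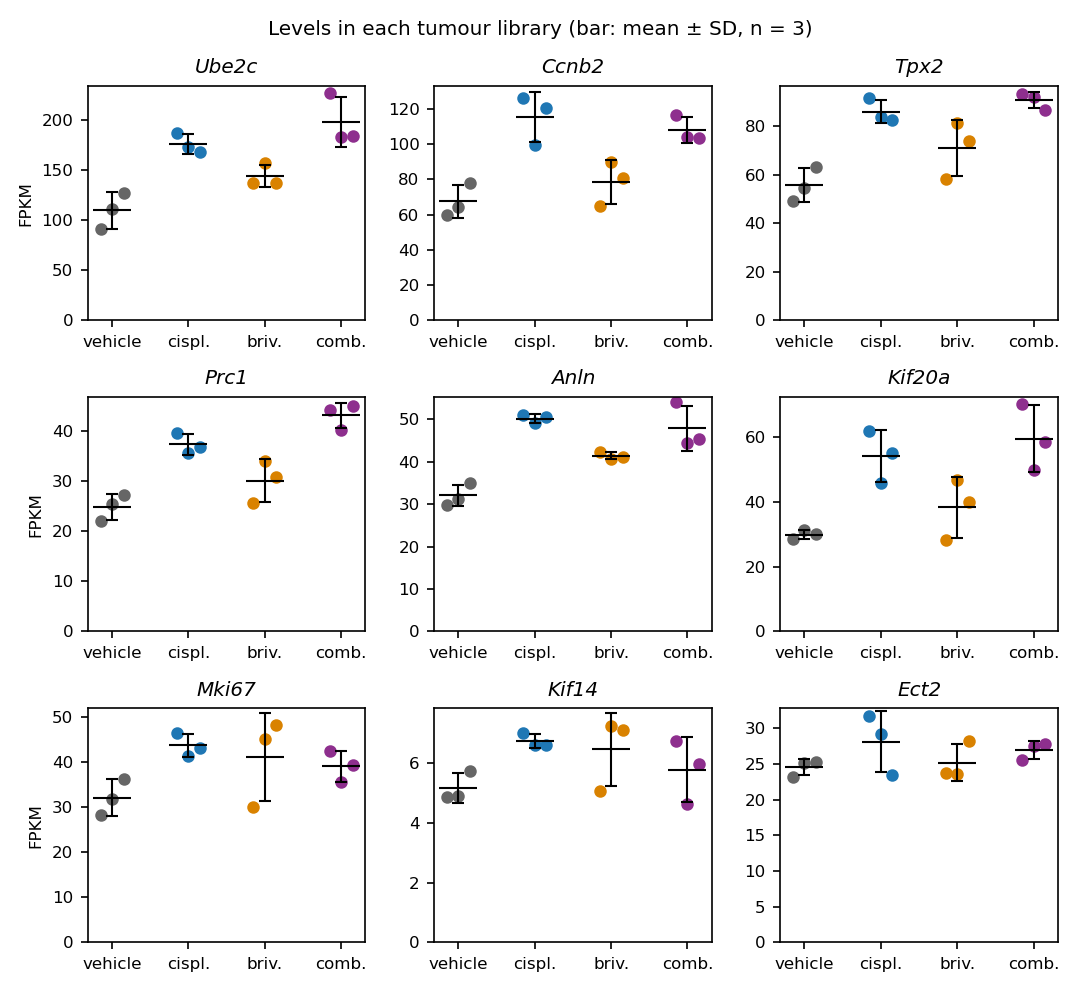
FPKM of 9 genes in each of the 12 tumour libraries by group, with mean ± SD (n = 3 per group) and axes that start at 0. Ube2c, Ccnb2, Tpx2 and Prc1 are higher in all cisplatin and combination libraries than in all others, Anln is higher in all treated tumours than in vehicle tumours, and Kif14 and Ect2 overlap.

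Brivanib alone was compared with vehicle to ask what the receptor inhibitor did without chemotherapy. No member passed the limma test (0 of 45, beside 1.71% of all tested genes), 11 had an unadjusted p under 0.05 (1663 of the 14246 genes in either direction), and voom on the recovered fragments also gave 0 calls with 15 under 0.05. The fitted difference was positive for 44 members, all but Kif11, with a median log2 fold change of 0.26 (1.2-fold) beside -0.01 over all genes. The 3 brivanib libraries were all above the 3 vehicle libraries for 7 members (8.95% of all genes): Anln, Bub1, Ube2c, Plk1, Cdca8, Cenpf and Cdc20. Member levels and skeletal muscle RNA differed in the same way among the brivanib libraries. The 16 skeletal muscle markers had a mean log2(FPKM + 1) of 3.69 in brivanib 3, 3.56 in brivanib 5 and 0.117 in brivanib 2, beside 0.112 to 0.165 in vehicle, 0.113 to 1.136 in cisplatin and 0.075 to 1.824 in combination tumours. Acta1, the actin of muscle fibres, was at 119.311 and 88.852 FPKM in brivanib 3 and 5 and at 0.224 FPKM in brivanib 2. Red cell markers split the same libraries the other way, with means of 5.187 in brivanib 2 and 3.948 and 3.58 in brivanib 3 and 5. With 3 brivanib libraries these lists cannot be told apart, and the part of either in the members' values was not tested. When the muscle score entered the fit as a covariate, the members' median log2 fold change for brivanib was -0.03, with the adipocyte score it was 0.06 and with both -0.04. Without brivanib 2 the median was 0.37, and without brivanib 3 it was 0.14. Fibroblast and macrophage markers were higher in all 3 brivanib libraries, brivanib 2 included: the 12 fibroblast markers had means of 5.76 to 6.015 in brivanib and 3.415 to 4.43 in vehicle, and the 12 macrophage markers means of 4.859 to 5.209 and 3.328 to 4.06. Their part in the members' values was not tested.

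For the cisplatin comparisons the same adjustments gave other counts. With the muscle score as a covariate 36 members rose with cisplatin on average and 19 in the combination against vehicle, beside 6.66% and 1.96% of all genes, and the median log2 fold changes were 0.44 and 0.45. With the adipocyte score, which was 2.368 to 2.719 in combination, 1.088 to 2.176 in cisplatin, 1.467 to 3.339 in brivanib and 1.004 to 1.055 in vehicle tumours, the counts were 10 and 0, beside 1.64% and 0.00702% of all genes, and the medians were 0.32 and 0.28, with 45 and 43 members positive. With both scores the counts were 21 and 0, beside 1.66% and 0.014% of all genes, and the medians 0.42 and 0.36. With the 4 libraries of highest muscle score (brivanib 3 and 5, combination 2 and cisplatin 1) left out, which leaves brivanib 2 as the lone brivanib library and assumes that it varies like the other groups, the counts were 17 and 1, beside 1.55% and 0.326% of all genes, and the medians 0.48 and 0.48.

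**Figure D4:**
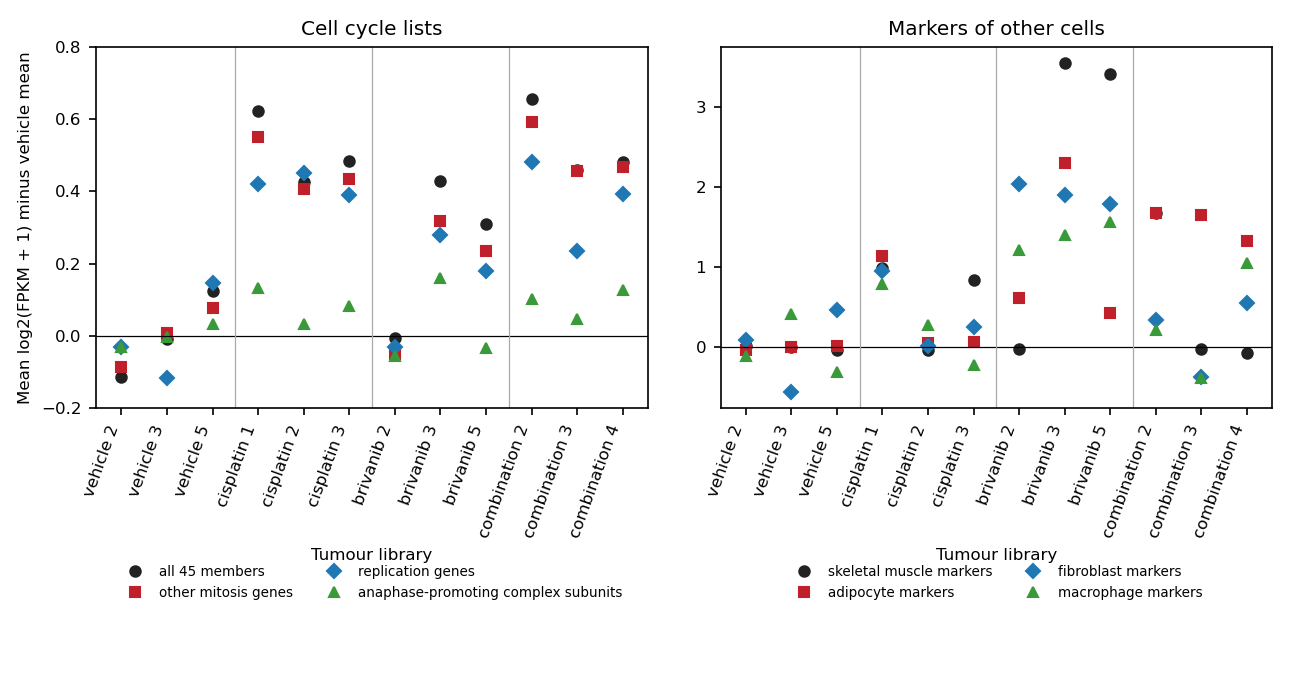
Mean log2(FPKM + 1) of 4 cell cycle lists (left) and 4 marker lists of other cells (right) in each tumour library, minus the mean of the 3 vehicle libraries. The 45 genes and the other mitosis genes lie above the anaphase-promoting complex subunits in every cisplatin and combination library, and the muscle markers are high in brivanib 3 and 5, at 3.69 and 3.56 before subtraction.

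Adding brivanib to cisplatin was tested by the combination against cisplatin. No member was called, as 0% of all genes were, and 0 members had an unadjusted p under 0.05 (960 of the 14246 genes in either direction). With voom 0 members passed at both levels. Of the 45 differences 25 were positive with a median of 0.03, which was -0.15 with the adipocyte score as a covariate. The combination libraries were all above the cisplatin libraries for 2 members, Cenpa and Prc1 (4.94% of all genes). The 95% interval of the difference for Prc1 ran from -0.05 to 0.46 and that for Kif20a from -0.26 to 0.52, so changes of the size that cisplatin gave against vehicle in Prc1 (0.57) lay outside the first interval, and modest changes remained possible. Adding cisplatin to brivanib was tested by the combination against brivanib, where 1 of 45 members passed, beside 2.02% of all genes. That was Prc1, at 0.51 ± 0.12 (adjusted p = 0.0356). Its call was lost without vehicle 3, cisplatin 3, brivanib 2, brivanib 5 or any combination library, where 0.14% to 1.99% of all genes were higher past the test. Without brivanib 3, 5 members passed, beside 2.54% of all genes. With all libraries the median over the members was 0.30, with 42 positive, 20 under an unadjusted p of 0.05 (3096 of the 14246 genes in either direction), and 19 without overlap, as held for 14.1% of all genes. It was 0.17 without brivanib 2 and 0.48 when the fit held the muscle score, where 14 members passed beside 2.15% of all genes. All 12 fibroblast markers had a negative difference between the combination and brivanib tumours, with a median of -1.57, and 7 were lower past the test, beside 263 of the 14246 genes. All 5 red cell markers tested were lower past the test, with a median of -6.96. The difference was positive for 0 of 12 muscle and 0 of 12 macrophage markers (medians -2.16 and -1.16, 0 past the test). It was positive for 8 of 9 adipocyte markers (median 0.57). The part of these lists in the result was not tested.

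Averaged over cisplatin, the fitted difference for brivanib was positive for 43 members with a median of 0.13. That median was 0.08 when brivanib 3 was left out, 0.001 when the fit held the muscle score, -0.04 with the adipocyte score and -0.07 with both. No member passed (0 of 45, beside 0.498% of all genes), 6 had an unadjusted p under 0.05 beside 1415 of the 14246 genes (9 by voom, which also called 0), and the 6 brivanib-treated libraries lay above the 6 others for 0 members, as for 0.119% of all genes. The interaction asked whether the cisplatin effect differed with and without brivanib. Its median was -0.22, 42 members were negative, and 0 passed with limma or voom, with 3 and 5 members under an unadjusted p of 0.05. Of all genes 0.14% were called lower and 0% higher, and 1430 of 14246 had an unadjusted p under 0.05. The median moved to -0.39 without brivanib 2, to -0.12 without brivanib 3, and to 0.01 when the fit held the muscle score, where 24 members were positive. The most negative was Plk1 at -0.55 ± 0.24 (adjusted p = 0.461), and Anln had the smallest p at -0.43 ± 0.13 (adjusted p = 0.278). For Anln the cisplatin difference was 0.63 without and 0.20 with brivanib.

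Neighbouring gene groups were read beside the members. Of 58 other mitosis genes, 32 rose with cisplatin on average and 16 in the combination against vehicle, with 0 lower. Over all tested genes 4.96% were higher past the test with cisplatin on average and 1.82% in the combination against vehicle. Mastl, the kinase that blocks the phosphatase opposing mitosis, was at 12.2 ± 0.32 FPKM in vehicle, 22.2 ± 2.2 in cisplatin, 14.8 ± 4.1 in brivanib and 23.7 ± 1.2 in combination tumours (SD, n = 3; 0.74 ± 0.11 on average, adjusted p = 0.00605). Cdk1, the mitotic kinase itself, differed by 0.18 ± 0.08 (adjusted p = 0.166) and did not pass. Of 30 replication genes 11 rose, led by Mcm10, Orc1, Cdc45 and Rrm2, with a list median of 0.31, and Pcna, the sliding clamp, did not pass (0.29 ± 0.08, adjusted p = 0.0546). The members minus the replication genes, as a difference of mean log2(FPKM + 1) within each library, was -0.30 to -0.11 in vehicle, -0.24 to -0.02 in cisplatin, -0.19 to -0.07 in brivanib and -0.13 to 0.01 in combination tumours, so the groups overlapped.

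Of 18 condensin and cohesin genes 5 rose and 1 fell with cisplatin on average, and Cdca5, for the cohesion protector sororin, rose by 0.70 ± 0.10 (adjusted p = 0.00515). For that effect 4.96% of all tested genes were higher and 221 of the 14246 were lower past the test, also the background for the lists that follow. Among 17 genes of the anaphase-promoting complex and its inhibitors 2 rose, Fbxo5 and Anapc11, while the list's median was 0.08 beside 0.05 over all genes. Of 21 regulators of mitotic gene transcription 6 rose. Mybl2, which binds mitotic promoters with the MuvB complex, was at 26.1, 27.1 and 31.3 FPKM in vehicle, 42.2, 44.1 and 45.5 in cisplatin, 31.9, 33.2 and 33.5 in brivanib, and 62.8, 50.4 and 46.6 in combination tumours. The groups with and without cisplatin did not overlap (0.65 ± 0.08, adjusted p = 0.00305), and Mybl2 was 0.89 ± 0.11 higher in the combination than in vehicle (adjusted p = 0.00662). Of the inhibitors of cyclin-dependent kinases and the G1 cyclins, 12 of 15 were tested and 3 rose with cisplatin on average. Ccnd1, for cyclin D1, rose by 0.63 ± 0.08 (adjusted p = 0.00316). Cdkn1a, for the p53-induced inhibitor p21, was at 15.4 ± 4.5 FPKM in vehicle, 27.0 ± 9.5 in cisplatin, 29.2 ± 12.8 in brivanib and 38.0 ± 5.2 in combination tumours (SD, n = 3). The combination differed from vehicle by 1.28 ± 0.34, which missed the threshold (adjusted p = 0.0695). The average differences of Cdkn1a were 0.61 ± 0.24 for cisplatin and 0.67 ± 0.24 for brivanib, and neither passed.

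Promoters of the members were examined because the genes moved together. A window of 250 bases before to 50 after the annotated start was taken from RefSeq (GRCm38.p6) for 36 of the 45 members, and for 8845 of the tested genes. The members without a matched window were Ccna2, Tpx2, Kif20a, Kif2c, Aurkb, Spc24, Incenp, Foxm1 and Dlgap5. A pair of motifs of mitotic promoters was searched by their letters on both strands: TTTGAA, the core of the cell cycle genes homology region (CHR) through which the MuvB complex binds, and CCAAT, the box bound by NF-Y. The 4 called members with the smallest p for the combination against vehicle that carry both motifs in the stretch printed are shown first, and Pttg1, a called member with neither, for contrast. Capitals mark TTTGAA or its reverse complement and CCAAT or its reverse complement, and each run goes from 250 bases before to 30 after the start, on the strand of the gene. Prc1 is at chr7:80294226-80294505 (plus strand), Ube2c at chr2:164769679-164769958 (plus), Ccnb2 at chr9:70421525-70421804 (minus), Cdc20 at chr4:118437314-118437593 (minus) and Pttg1 at chr11:43425952-43426231 (minus).
Prc1: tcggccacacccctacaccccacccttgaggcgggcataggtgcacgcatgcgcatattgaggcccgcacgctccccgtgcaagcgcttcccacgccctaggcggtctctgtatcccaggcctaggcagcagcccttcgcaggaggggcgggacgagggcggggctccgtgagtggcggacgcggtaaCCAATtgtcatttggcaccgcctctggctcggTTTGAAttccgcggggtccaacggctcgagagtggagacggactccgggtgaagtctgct
Ube2c: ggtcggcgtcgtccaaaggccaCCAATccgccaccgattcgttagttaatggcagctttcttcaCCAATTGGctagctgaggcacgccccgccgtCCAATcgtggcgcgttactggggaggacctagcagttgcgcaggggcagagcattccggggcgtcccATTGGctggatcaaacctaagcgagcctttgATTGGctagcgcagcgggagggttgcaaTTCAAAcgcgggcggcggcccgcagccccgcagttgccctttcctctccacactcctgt
Ccnb2: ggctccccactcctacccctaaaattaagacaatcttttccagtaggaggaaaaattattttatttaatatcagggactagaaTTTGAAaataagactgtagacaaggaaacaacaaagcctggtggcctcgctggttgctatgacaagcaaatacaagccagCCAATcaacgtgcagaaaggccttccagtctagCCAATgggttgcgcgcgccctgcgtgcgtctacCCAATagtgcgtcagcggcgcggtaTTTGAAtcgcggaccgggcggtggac
Cdc20: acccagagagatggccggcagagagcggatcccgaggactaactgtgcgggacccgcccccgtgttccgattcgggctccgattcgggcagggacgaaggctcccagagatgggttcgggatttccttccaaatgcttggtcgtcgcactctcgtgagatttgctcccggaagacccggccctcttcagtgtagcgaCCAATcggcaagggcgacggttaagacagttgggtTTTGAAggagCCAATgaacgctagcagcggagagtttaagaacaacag
Pttg1: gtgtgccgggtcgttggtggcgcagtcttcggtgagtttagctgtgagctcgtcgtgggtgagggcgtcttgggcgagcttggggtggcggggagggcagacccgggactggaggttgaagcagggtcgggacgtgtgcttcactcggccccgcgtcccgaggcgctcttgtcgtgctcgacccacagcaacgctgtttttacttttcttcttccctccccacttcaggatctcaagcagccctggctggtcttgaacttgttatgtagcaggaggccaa

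In Prc1 the CHR letters begin 30 bases before the start and the single CCAAT 62 bases before it. Ube2c has the CHR letters on the opposite strand, 29 bases before the start, and 6 CCAAT matches, 2 of which overlap in an 8-base palindrome. In Ccnb2 CCAAT begins 87, 54 and 21 bases before the start, with CHR letters 4 bases after it and a further match 167 bases before it. Cdc20 has CHR letters 18 bases before the start between CCAAT matches 53 and 8 bases before it. TTTGAA was found in 28 of the 36 member windows (77.8%) and in 11.7% of all 8845, CCAAT in 28 (77.8%) and 39.4%, at least 2 CCAAT in 20 (55.6%) and 15.9%, and both motifs in 25 (69.4%) and 5.0%. Within 50 bases of the start TTTGAA was in 26 member windows (72.2%) and in 2.9% of all. Neither motif was found in 5 members (Mad2l1, Nuf2, Birc5, Nusap1 and Pttg1), 13.9% beside 53.9% of all windows. For Mad2l1 the annotated start lay 247 bases from that of the main transcript, and the window ended before the latter. The median average cisplatin effect was 0.34 for the 28 members with TTTGAA and 0.44 for the 8 without, with ranges of 0.10 to 0.61 and 0.17 to 0.63. The members have known mitotic roles and were chosen with earlier results of these data known. Such promoters are known for these motifs, so the shares describe the set and not the treatment.

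**Figure D5:**
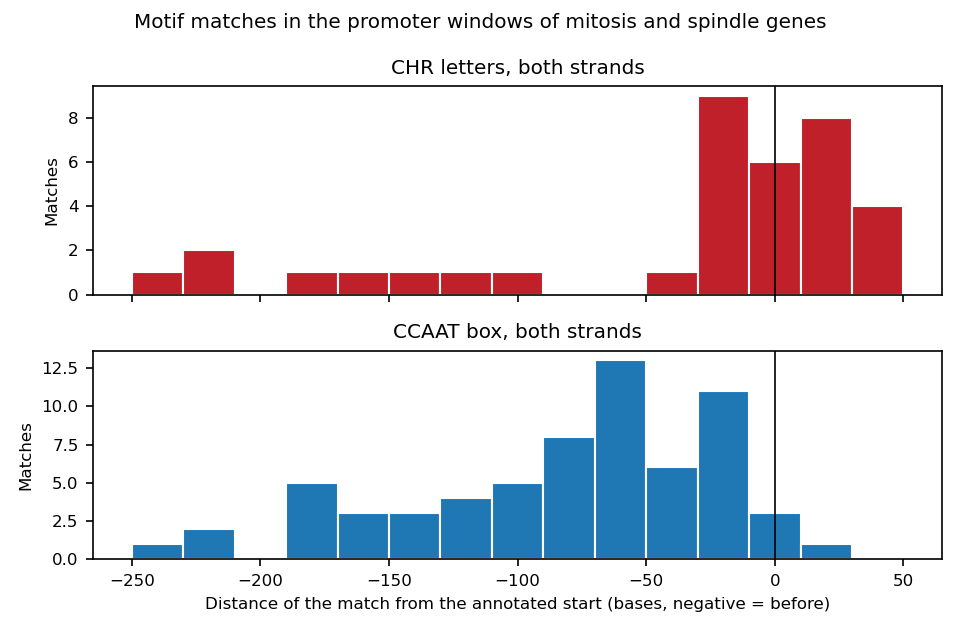
Histograms of the distance in bases from each motif match to the annotated start in the promoter windows of 36 members, with 36 CHR matches (top) and 65 CCAAT matches (bottom) in bins of 20 bases. CHR matches gather around the start, with 28 of 36 within 50 bases of it, and CCAAT matches lie further before it, at a median of 67 bases.

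Some levels carry limits from overlapping genes, copies and isoforms, since no strand setting is given in the sources used here and RSEM splits fragments between overlapping transcripts. Exons of Kif20a share 29.3% of their bases with Cdc23 on the opposite strand, and Cdc23 was at 28.2 to 28.9 FPKM in vehicle and 31.9 to 40.1 FPKM in combination tumours. Ccna2 shares 12.5% with Exosc9, which was at 45.2 to 47.1 FPKM in vehicle and 67.8 to 70.1 FPKM in cisplatin tumours. Ube2c shares 22.8% with the muscle gene Tnnc2, which reached 30.6 and 25.2 FPKM in brivanib 3 and 5 and at most 3.41 FPKM elsewhere. Prc1 shares 11.1% with Rccd1 on the opposite strand. Rccd1 was at 8.35 to 8.55 FPKM in vehicle, 10.91 to 12.11 in cisplatin, 8.43 to 10.93 in brivanib and 12.42 to 13.73 in combination tumours. Kif4 shares 15.1% with Pdzd11, whose mean of 21.023 FPKM was above that of Kif4 (12.44 FPKM). Reads of such pairs cannot be told apart without strand. The copy Ccnb2-ps was at 1.40 to 6.26 FPKM and lowest in the 3 brivanib libraries, and Ccnb1-ps was at 1.37 to 3.37 FPKM. Isoform shares of Kif20a differed within a group: its main transcript took 99.7%, 99.8% and 0% of the gene's FPKM in vehicle 2, 3 and 5, while the gene totals were alike at 28.5, 31.2 and 30.1 FPKM.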

How the data were processed

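RNA-seq values of 12 tumours were used. Per the labels' design text and the submitters' processing notes, the authors aligned BGISEQ-500 reads with Bowtie2 (2.2.5) and estimated FPKM per transcript with RSEM (1.2.12). The notes name the build mm9 and the design text mm10, and 98.46% of the transcripts found in GENCODE M21 had the same GRCm38 coordinates. The deposited FPKM values were summed per gene. Of the deposited columns 1 matched no sample and was not used, and 3 broken lines were dropped. FPKM times length went in whole fragments (100% of values up to 100 fragments within 0.01), which gave the depth.

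Genes with a mean of at least 1 FPKM (14246) were tested on log2(FPKM + 1) with limma 3.58.1 in R 4.3.3: 4 group means over 12 libraries, 8 residual degrees of freedom, a variance trend, 8 contrasts, two-sided tests and Benjamini-Hochberg adjustment over all genes tested, and 0.05 as the threshold. The added 1 makes fold changes of low genes too small. No 2 libraries of a group agreed within sampling noise.

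The members and gene lists were chosen with earlier results of these data known. All members are named. Levels in every library are given for the 2 highest members of each role, the 12 members called in a pairwise comparison with the largest moderated statistic and, where fewer than 3 passed a comparison, the 3 with the smallest p. They are also given for Ccnb1, which met none of these rules, and for Kif14 and Ect2, chosen after their values were seen. Of other lists up to 4 called genes and Cdk1, Mybl2, Cdkn1a and Pcna are named. Promoter windows came from RefSeq and were matched by symbol to the most abundant transcript's start within 1000 bases. Alternatives were a pseudocount of 0.1, no filter, other scalings, voom, marker scores as covariates, a replicate block, the compared groups alone, and leaving out libraries.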

Additional observations from a re-analysis of the deposited data

How the results depend on the processing

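For brivanib against vehicle, the combination against cisplatin, brivanib averaged over cisplatin and the interaction, 0 members were called with limma and under every alternative run. The other counts are given in the order cisplatin against vehicle, combination against vehicle, combination against brivanib and the average cisplatin effect, where the values above are 1, 14, 1 and 24. They were 1, 15, 1 and 24 with a pseudocount of 0.1, and 0, 4, 1 and 14 with no filter on low values. Median-of-ratios scaling gave 0, 11, 0 and 17, and voom on recovered fragments 0, 13, 0 and 19. They were 0, 4, 0 and 14 when ribosomal-like features were removed and all libraries were also rescaled to equal FPKM totals. The parts of these 2 steps were not told apart. With the muscle score as a covariate they were 3, 19, 14 and 36, with the adipocyte score 0, 0, 0 and 10, with both 0, 0, 3 and 21, and with the 4 libraries of highest muscle score left out, an alternative chosen after seeing the data, 0, 1, 0 and 17. With only the compared groups in the fit the first 3 were 3, 16 and 0. Leaving out each library in turn gave 0 to 8, 0 to 22, 0 to 5 and 13 to 33. Over all tested genes the share higher past the test was then 0% to 0.52%, 0.0983% to 2.81%, 0.14% to 2.54% and 2.21% to 6.99%. With the muscle score in the fit these shares were 0.0772%, 1.96%, 2.15% and 6.66%. With the adipocyte score they were 0.014%, 0.00702%, 1.02% and 1.64%, and with both 0.00702%, 0.014%, 0.0842% and 1.66%. With the replicate block all counts were 0, although 34, 37, 17 and 38 members had an unadjusted p under 0.05. Same-numbered libraries shared only a number: their correlations of deviations were -0.157 to 0.213 over 13 pairs, 2 were above 0.1, and 4 of 10 libraries correlated best with their own number. The median member difference stayed positive in all alternatives for cisplatin and the combination against vehicle (23 each) and for the average cisplatin effect (22). The difference of Foxm1 between the combination and cisplatin, 0.24, turned to -0.048 with the adipocyte score as a covariate. The cause of these shifts was not tested. With 3 libraries a group, differences of the median member's size sit near the threshold, and the spread between libraries, not depth, sets the error.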
